A study of Mus musculus with 18 samples.

Results

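The list held 41 genes of T cell receptor signalling: the CD3 and zeta chains, the kinases and adaptors next to them, downstream enzymes and factors, and the genes that restrain them. They were taken by symbol from a named list. No cutoff on their values was used, but the list was chosen with earlier results of these data known. Each gene matched 1 of the 49671 gene models in the count files. All 41 passed the filter on low counts, among 14080 tested genes. By their known roles, 24 promote the signal, 14 restrain it, and 3 (Cd6, Thy1 and Sh2d2a) were set apart because both kinds of role have been described.

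RNA was sequenced from CD8+ and CD4+ T cells sorted out of tumors that the ovalbumin-bearing mouse melanoma line B16f10-OVA formed in 12 days under the skin of B6 mice. Each cell type had 3 groups of 3 libraries. The floxed group came from mice with a floxed miR-155 gene and no Cre named in the label, and the deficient group from floxed mice that also carried CD4cre, a Cre driven by the Cd4 promoter, which acts in both CD4 and CD8 lineages because developing T cells pass through a stage with both coreceptors. The treated group came from floxed CD4cre mice that received checkpoint blockade on days 3, 6 and 9, with antibodies to CTLA-4 and to PD-1/PD-L1, which restrain T cells. The floxed gene was thus shared by all 6 groups, and blockade was compared within deficient cells alone. Each library pooled cells of 2 to 3 tumors from separate mice, with no label telling whether CD8 and CD4 pools came from the same tumors. In what follows, "deletion" means deficient against floxed, and "blockade" means treated against untreated deficient cells. Calls required an adjusted p under 0.05 over all tested genes.

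When a T cell receptor binds its peptide, the kinase Lck phosphorylates the CD3 and zeta chains, Zap70 docks there and phosphorylates the adaptors Lat and Slp-76 (Lcp2), and the assembled complex activates phospholipase C, Ras, protein kinase C theta and calcium signalling to NFAT. Phosphatases, Cbl ubiquitin ligases, diacylglycerol kinases and Dok adaptors limit the same steps, and activated T cells raise several of these brakes themselves. MiR-155, a microRNA abundant in T cells after activation, lowers transcripts whose 3' UTR pairs with its seed.

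The deleted microRNA and the places where its seed could pair with list members are shown first. The mature mouse miR-155-5p lies at chr16:84714143-84714165 on the plus strand (RefSeq, GRCm38.p6), with bases 2 to 8, the seed, in capitals. Below it stand the 23-base stretches of members' 3' UTRs (GENCODE M21, GRCm38) that hold the letters AGCATTA opposite the seed, with the match in capitals, 5' to 3' on the transcript.
mmu-miR-155-5p: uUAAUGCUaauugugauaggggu
Cbl: caggcaggtagAGCATTAAataa
Cd247: tgttccccatgAGCATTAttctc
Sos1: gttattttgcaAGCATTAttttc
Nfatc3: ttgatgcctatAGCATTAgaaat
The Cbl stretch (chr9:44149268-44149290, minus strand) has the longer match AGCATTAA. The others lie at chr1:165870531-165870553 on the plus strand (Cd247), chr17:80393986-80394008 on the minus strand (Sos1) and chr8:106129875-106129897 on the plus strand (Nfatc3). Nfatc1 also holds such a match, which is not printed. The letters AGCATTA were thus in the 3' UTR of 5 of 41 members (12.2%), against 9.43% of 12100 tested genes with a 3' UTR, and AGCATTAA in 2.44% against 3.36%. No member with a match was called higher after deletion in either cell type. Of all tested genes 9.65% were called higher in CD8 and 4.61% in CD4 cells, so 5 members are too few to read a result from this. Nfatc1 was called lower in CD8 cells, a call lost without deficient CD8 replicate 1. A match is a run of letters, not a site shown to be used.

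Promoters are printed for 4 members called in more than 1 comparison: Dgka and Txk, which were higher in deficient cells of both lineages, and Themis and Ubash3b, which were lower in deficient than in floxed CD8 cells and higher with blockade. Each runs from 250 bases before to 50 bases after the RefSeq start (GRCm38.p6), with capitals for GGAAA or its reverse complement TTTCC, the core letters bound by NFAT.
Dgka: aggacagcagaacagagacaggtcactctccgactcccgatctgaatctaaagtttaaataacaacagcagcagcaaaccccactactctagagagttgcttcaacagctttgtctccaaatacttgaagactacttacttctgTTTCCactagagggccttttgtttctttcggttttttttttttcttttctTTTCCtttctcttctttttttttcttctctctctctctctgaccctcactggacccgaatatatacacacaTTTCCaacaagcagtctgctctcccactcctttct
Txk: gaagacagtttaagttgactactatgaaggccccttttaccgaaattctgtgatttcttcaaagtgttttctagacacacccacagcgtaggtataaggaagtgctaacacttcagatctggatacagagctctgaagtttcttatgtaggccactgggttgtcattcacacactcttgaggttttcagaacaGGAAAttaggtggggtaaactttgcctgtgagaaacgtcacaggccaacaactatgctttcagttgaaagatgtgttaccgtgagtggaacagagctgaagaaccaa
Themis: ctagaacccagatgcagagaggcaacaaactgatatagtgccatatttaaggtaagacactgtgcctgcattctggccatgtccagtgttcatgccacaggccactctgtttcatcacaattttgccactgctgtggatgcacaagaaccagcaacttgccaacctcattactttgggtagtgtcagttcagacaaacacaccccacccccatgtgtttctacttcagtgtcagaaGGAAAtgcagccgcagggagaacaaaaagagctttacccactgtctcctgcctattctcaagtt
Ubash3b: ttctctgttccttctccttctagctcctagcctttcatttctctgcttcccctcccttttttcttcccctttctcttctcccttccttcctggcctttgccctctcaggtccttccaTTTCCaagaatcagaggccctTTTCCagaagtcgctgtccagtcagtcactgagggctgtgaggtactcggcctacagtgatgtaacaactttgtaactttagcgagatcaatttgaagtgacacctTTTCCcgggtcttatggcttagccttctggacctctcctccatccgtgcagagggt
These windows lie at chr10:128745035-128745334 (minus strand, Dgka), chr5:72752728-72753027 (minus, Txk), chr10:28668110-28668409 (plus, Themis) and chr9:41158013-41158312 (minus, Ubash3b). For Dgka and Ubash3b the RefSeq start is not the outer end of the gene model that was counted. The Dgka window lies wholly upstream of the counted model and shares no base with it. The NFAT core letters occurred 3 times in the Dgka and Ubash3b windows and 1 time in those of Txk and Themis. They were in 71.9% of the 32 members with a promoter in the table and in 59.4% of 10103 tested genes, searched on both strands. The same shares were 0% and 4.9% for the AP-1 letters TGANTCA, 9.38% and 2.46% for the forkhead letters GTAAACA, 9.38% and 12.9% for the RUNX letters TGTGGT, and 12.5% and 28.8% for the ETS letters CCGGAA, which can overlap an NFAT core.

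Libraries held 3.2 to 11.65 M counts (M for the SI prefix mega). Mir155hg, the host transcript of miR-155, fell after deletion by 4.04 ± 0.65 (log2, SE; adjusted p = 0.000205) in CD8 cells and by 4.05 ± 0.74 (adjusted p = 0.00126) in CD4 cells. Cd8a was at 624 to 1450 CPM (counts per M after TMM scaling) in CD8 libraries and Cd4 at no more than 3.14 CPM there. Cd4 was at 233 to 1090 CPM in CD4 libraries, while floxed CD4 libraries also held 14.6 to 150 CPM of Cd8a. The floxed CD8 replicate 1 stood apart from the other 2 of its group: 8 members (Cd3e, Pag1, Cbl, Cblb, Sos1, Nfatc1, Nfatc2 and Nfatc3) were over 2-fold above the mean of those 2, as were 8.26% of tested genes. The counts that rest on it, and the members it moved most, are given with and without it. Markers of other cells differed between groups. The summed level of 15 melanoma genes was 166 to 208 CPM in floxed, 1440 to 3290 CPM in deficient and 375 to 1780 CPM in treated CD8 libraries, and 165 to 688, 1930 to 4530 and 459 to 2080 CPM in the CD4 groups in that order. The sum of 20 macrophage and monocyte genes was 927 to 3550 CPM in CD8 libraries, 14500 to 29900 CPM in floxed CD4 libraries and 4890 to 7090 CPM in the other CD4 libraries. Different genes led this sum. In treated CD8 replicate 1 they were Ccr2 (7542 counts), Ctss (2238) and Cx3cr1 (1434), and in floxed CD4 replicate 1 Lyz2 (36341), Ctss (19168) and Ccr2 (11762). The part of T cells in the sum was not tested, here or where it served as a covariate. In bulk RNA, fewer T cells in a sort and less RNA per T cell cannot be told apart. Pan T cell markers (8 genes, 3 of them the list members Cd3d, Cd3e and Cd3g) summed to 3010 to 3870 CPM in floxed, 2840 to 3090 CPM in deficient and 4140 to 4420 CPM in treated CD8 libraries. In CD4 libraries the sums were 1910 to 2900, 2830 to 3420 and 3420 to 4000 CPM in that order. The part of T cell content in the members' differences was not tested.

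On a per-length scale (RPKM), levels of the members spanned a wide range. In floxed CD8 cells the highest were Thy1, a surface glycoprotein of T cells, at 284 ± 45.3 RPKM (SD, n = 3), Cd3g at 251 ± 42.3 RPKM, Lck at 194 ± 32.9 RPKM and Cd3d at 174 ± 21.4 RPKM, and neighbours in this order did not differ beyond their SDs. The lowest were Nfatc2 at 5.3 ± 5.02 RPKM and Sos1, a Ras exchange factor, at 4.1 ± 1.99 RPKM. In floxed CD4 cells Cd2, the adhesion receptor for CD48, came first at 290 ± 92.5 RPKM, and Sos1 came last at 2.5 ± 0.552 RPKM. Cd2 stayed first in all 3 CD4 groups, whereas in CD8 cells the first place went to Thy1 in floxed (284 RPKM) and treated cells (330 ± 21.9 RPKM) and to Ptprc (CD45) in deficient cells (185 ± 7.43 RPKM).

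**Figure D1:**
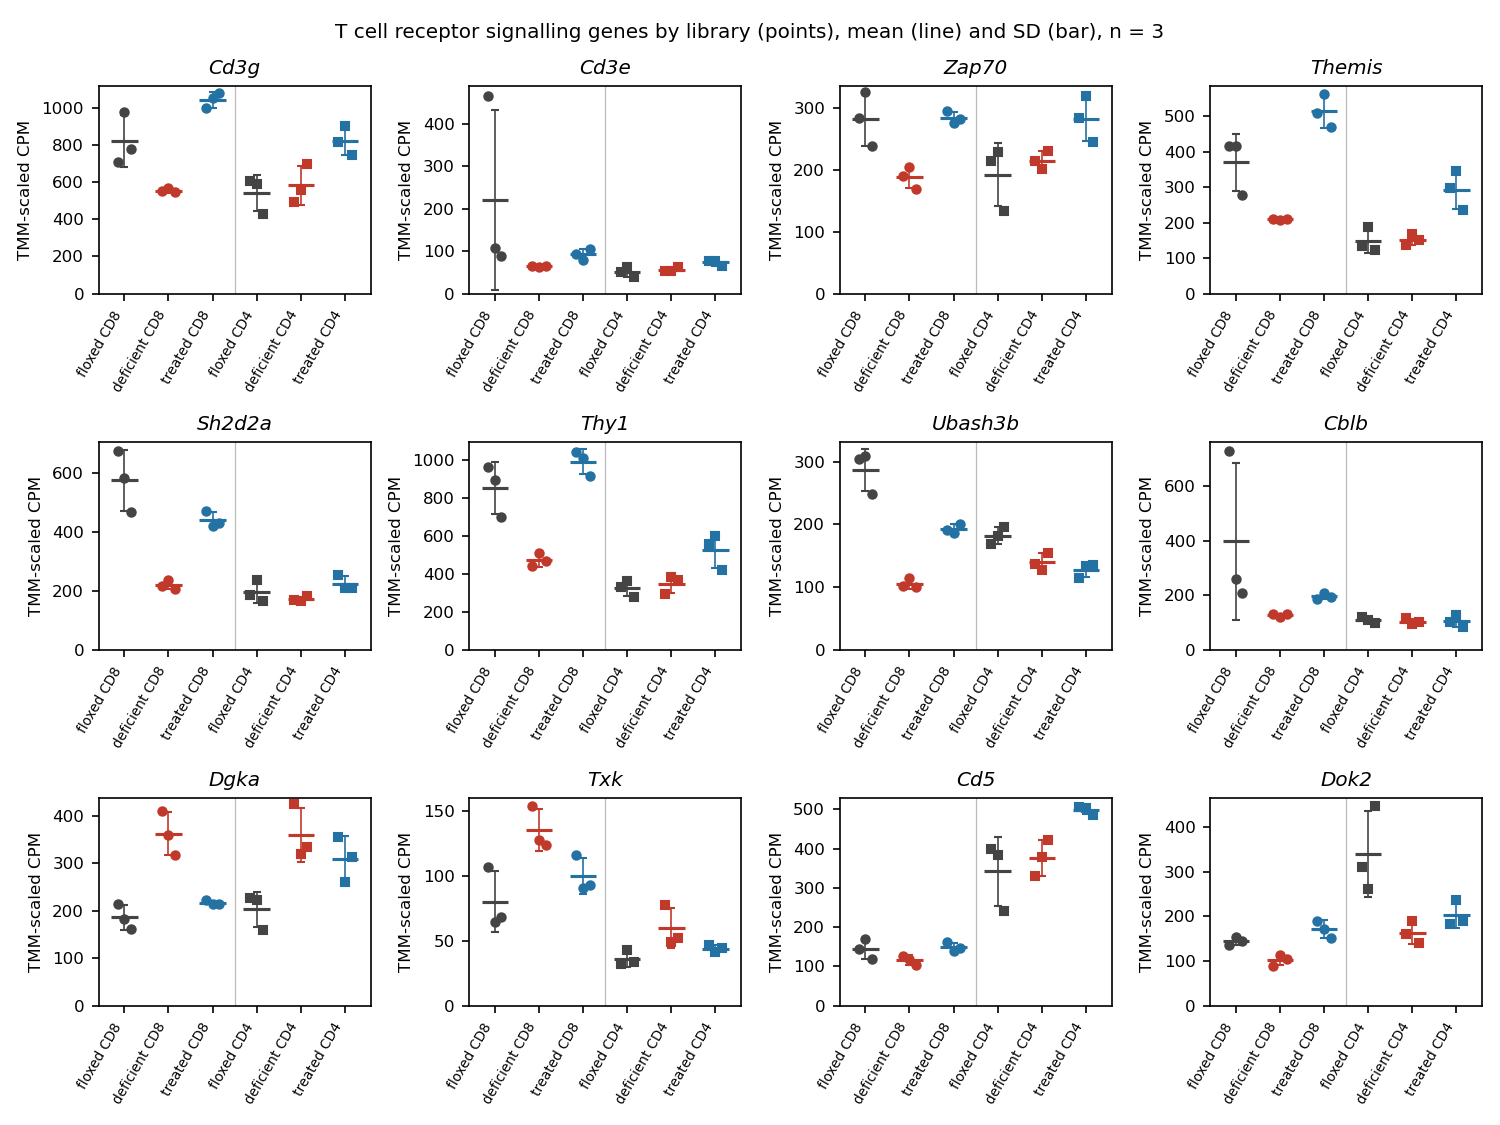
TMM-scaled CPM (y axis, linear from 0) of 12 members in each of the 18 libraries, by group (x axis), with circles for CD8 and squares for CD4 cells, lines at group means and bars for the SD (n = 3). Cd3g, Zap70, Themis, Sh2d2a, Thy1 and Ubash3b were lower in deficient than in floxed CD8 cells, Dgka and Txk were higher in deficient cells of both types, and the bars of Cd3e and Cblb in floxed CD8 cells are wide because of replicate 1.

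In CD8 cells more of the list was lower than higher after deletion. Of the 41 members, 14 were called lower and 2 higher, where 9.61% of all tested genes were lower and 9.65% higher. The median log2 fold change was -0.35 over the members and -0.01 over all tested genes. Those lower were 7 of the 24 positive members (Cd3e, Cd3g, Zap70, Lcp2, Themis, Rasgrp1 and Nfatc1), 4 of the 14 negative members (Ubash3b, Cblb, Dgkz and Dok2) and all 3 mixed ones, and those higher were Txk and Dgka. Without the floxed CD8 replicate 1 the counts were 13 lower and 2 higher, against 7.55% and 7.78% of tested genes, and the members' median was -0.12. The log2 differences in that fit were -0.67 for Cd3g, -0.6 for Zap70, -0.47 for Lcp2, -0.75 for Themis, -1.27 for Sh2d2a, -1.42 for Ubash3b, -0.44 for Dgkz, -0.57 for Dok2, -0.77 for Thy1 and 1.06 for Dgka, all of them called.

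Among the receptor chains, Cd3g, which pairs with CD3 epsilon, was at 710, 976 and 777 CPM in the floxed CD8 libraries and at 551, 567 and 546 CPM in the deficient ones. The groups did not overlap, and Cd3g was 1.48-fold lower (log2 -0.57 ± 0.15, adjusted p = 0.00956). Cd3e was at 466, 108 and 88.1 CPM in floxed and at 65.1, 61.8 and 64.7 CPM in deficient libraries. Floxed replicate 1 stood far above every other library, and the size of the Cd3e difference depended on it: log2 -1.79 ± 0.47 (adjusted p = 0.0176) with it and -0.64 ± 0.17 (adjusted p = 0.0127) without. Cd3d, the delta chain, had a log2 difference of 0.03 ± 0.14 with a 95% interval of -0.26 to 0.32, and Cd247, the zeta chain, one of -0.33 ± 0.13 that missed the threshold (adjusted p = 0.0735).

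The kinases went in different directions. Zap70, which docks on phosphorylated CD3 and zeta chains, was at 284, 326 and 239 CPM in floxed and at 191, 205 and 170 CPM in deficient CD8 libraries, 1.5-fold lower with no overlap (adjusted p = 0.0139), a call lost without floxed replicate 2 or deficient replicate 3. Txk, a Tec family kinase of resting T cells, went the other way, from 107, 64.7 and 68.7 CPM to 154, 128 and 124 CPM (log2 0.76 ± 0.19, adjusted p = 0.00803; without floxed replicate 1 it was 1.01 ± 0.18). Lck and Fyn, the Src family kinases that start the signal, were not called (log2 -0.31 ± 0.14 and -0.16 ± 0.11).

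Adaptors held some of the clearest differences. Sh2d2a, the T cell specific adaptor that binds Lck, was at 676, 583 and 467 CPM in floxed and at 218, 237 and 206 CPM in deficient CD8 libraries. Every deficient library was below every floxed one, and the difference was 2.61-fold (log2 -1.38 ± 0.14, adjusted p = 2.53e-06). Themis, an adaptor that binds the phosphatase Shp-1, went from 415, 417 and 278 CPM to 210, 207 and 211 CPM (log2 -0.82 ± 0.17, adjusted p = 0.00189). Lcp2 (Slp-76) was lower by less, at 358, 332 and 276 CPM against 206, 242 and 218 CPM (log2 -0.54 ± 0.12, adjusted p = 0.00315). Lat, the membrane scaffold, was at 216 to 236 CPM in floxed and 208 to 242 CPM in deficient libraries, with a 95% interval on the log2 difference of -0.34 to 0.35.

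Of the enzymes and factors further down, only 2 members were called. Rasgrp1, the Ras exchange factor recruited by diacylglycerol, was lower with all libraries (log2 -0.62 ± 0.19, adjusted p = 0.0246) and not without floxed replicate 1 (log2 -0.25 ± 0.13, adjusted p = 0.212). Nfatc1, the inducible NFAT factor, was at 332, 92.2 and 119 CPM in floxed and at 48.7, 48.5 and 78.4 CPM in deficient libraries. Its log2 difference was -1.63 ± 0.39 with floxed replicate 1 (adjusted p = 0.00956) and -0.87 ± 0.24 without (adjusted p = 0.0164). Nfatc2 and Nfatc3 were not called in either fit, and their differences of -0.91 and -0.37 became 0.22 and 0.11 without that library. Plcg1, Vav1, Prkcq, Malt1 and Bcl10, the phospholipase, the Rac exchange factor, protein kinase C theta and 2 parts of the complex that leads to NF-kappaB, were not called, with log2 differences from -0.17 to 0.28.

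The brakes did not move as a block. Ubash3b (Sts-1), a phosphatase that acts on Zap70, had the smallest adjusted p of the list, at 304, 309 and 249 CPM in floxed against 101, 115 and 99.8 CPM in deficient libraries. It was 2.73-fold lower (log2 -1.45 ± 0.12, adjusted p = 2.87e-07), and leaving out 1 library at a time gave -1.53 to -1.41. Cblb, the ubiquitin ligase that holds back T cells without costimulation, was at 731, 259 and 207 CPM against 130, 119 and 130 CPM. Its log2 difference was -1.66 ± 0.34 with floxed replicate 1 (adjusted p = 0.00397) and -0.9 ± 0.15 without it (adjusted p = 0.000219). Dgkz, a kinase that consumes diacylglycerol, was lower (log2 -0.47 ± 0.12, adjusted p = 0.0106), as was the Ras-limiting adaptor Dok2 (log2 -0.51 ± 0.17, adjusted p = 0.0381). The Dok2 call was lost in 5 of 6 fits without 1 library, kept only without floxed replicate 1, and also lost without the libraries rich in ribosomal-type RNA (adjusted p = 0.0575). Dgka, the other diacylglycerol kinase, was higher, at 214, 182 and 162 CPM in floxed and 409, 360 and 318 CPM in deficient libraries (log2 0.96 ± 0.15, adjusted p = 0.000212). Csk, which phosphorylates the inhibitory tyrosine of Lck, was not called (log2 -0.09 ± 0.12), nor were Pag1, Ptpn22 and Ubash3a. Rasa2 (log2 0.22), Dok1 (0.22) and Cbl (-0.85, and -0.05 without floxed replicate 1) were not called either. The phosphatase Ptpn6 (Shp-1) was at the edge (log2 -0.47 ± 0.17, adjusted p = 0.0508) and lower without floxed replicate 1 (-0.65 ± 0.16, adjusted p = 0.00645).

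Surface receptors with mixed roles were lower. Thy1 was at 963, 890 and 700 CPM in floxed against 440, 508 and 465 CPM in deficient CD8 libraries, 1.81-fold lower with no overlap (adjusted p = 0.000472). Cd6, a receptor that binds CD166, was lower by log2 -0.47 ± 0.16 (adjusted p = 0.0469), a call that was lost without floxed replicate 1 (-0.51 ± 0.17, adjusted p = 0.052). Cd2 and the inhibitory receptor Cd5 were not called (log2 -0.11 ± 0.17 and -0.31 ± 0.16). Leaving out deficient CD8 replicate 1 took the count of called members from 16 to 10, with Cd3e, Txk, Rasgrp1, Nfatc1, Cd6 and Dok2 lost, and the calls of Cd3e, Rasgrp1 and Cd6 were also lost without deficient replicate 2 or 3. Without deficient replicate 1, 1641 of 14641 tested genes were called, against 2712 of 14080 with all libraries. A fit on the floxed and deficient CD8 libraries alone called 11 members, with Cd3e, Cblb, Rasgrp1, Nfatc1 and Cd6 lost. It called 1875 of 12739 tested genes.

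**Figure D2:**
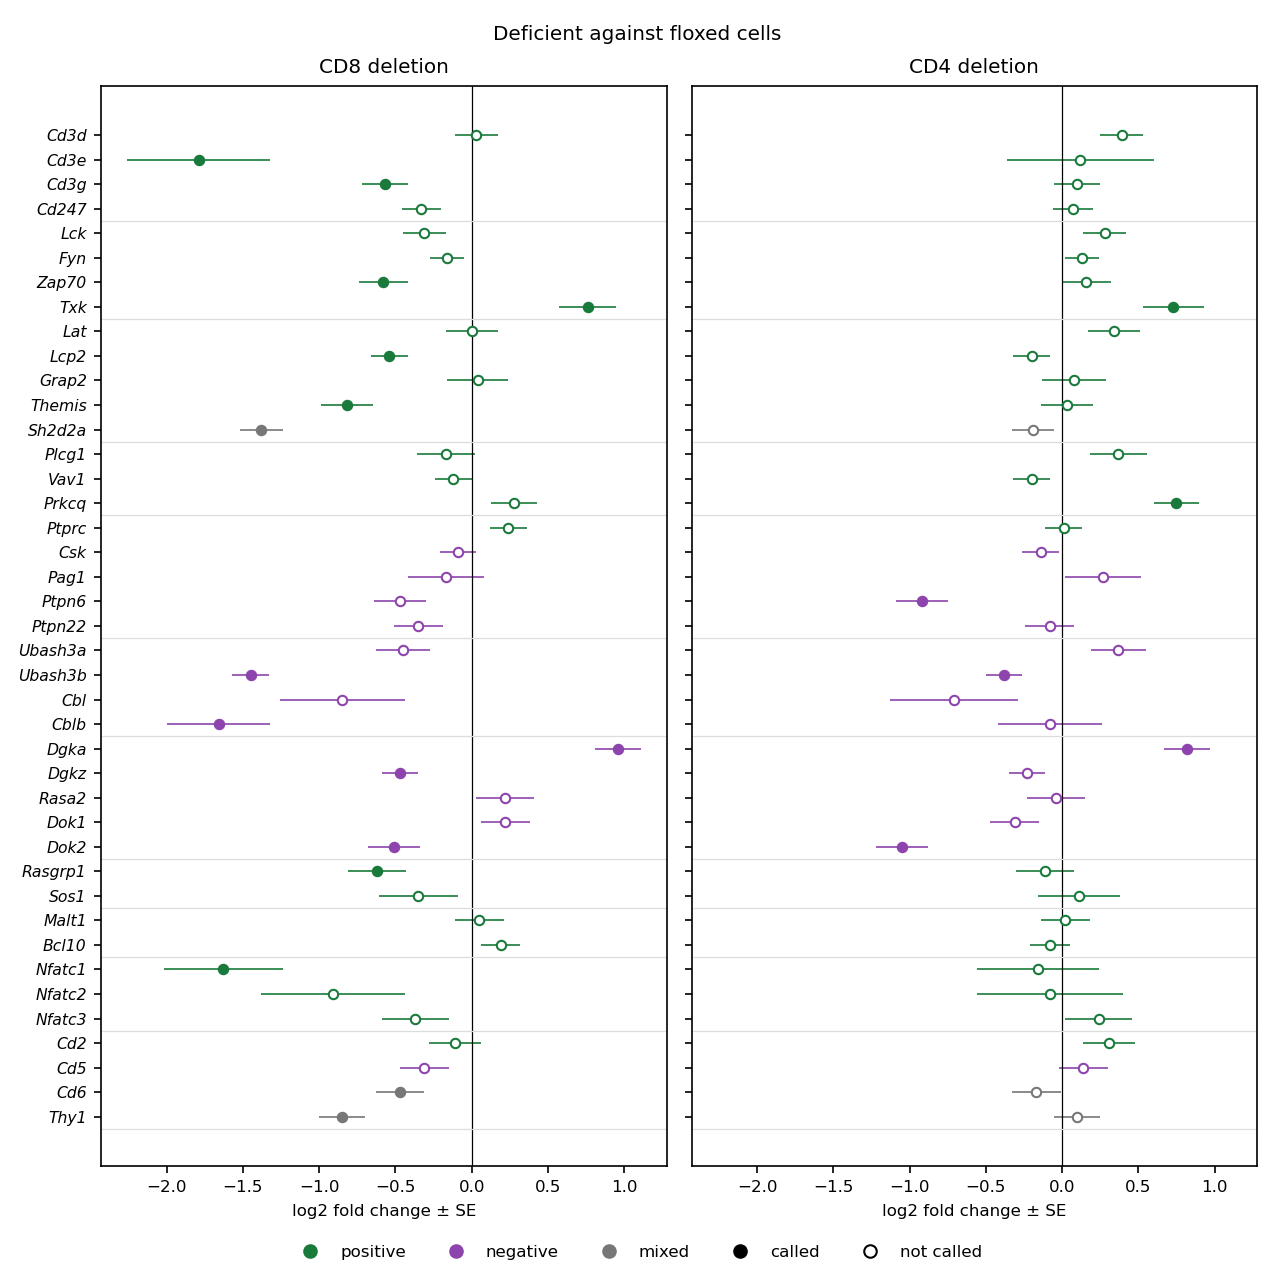
Log2 fold change (x axis) of deficient over floxed cells for the 41 members in order of role (y axis, gray lines between roles), in CD8 cells on the left and CD4 cells on the right, with bars for the SE of the fit, colours for positive, negative and mixed members, and filled points for called genes. In CD8 cells 14 filled points lie left of 0 and 2 right of it, and in CD4 cells 3 lie on each side.

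**Figure D3:**
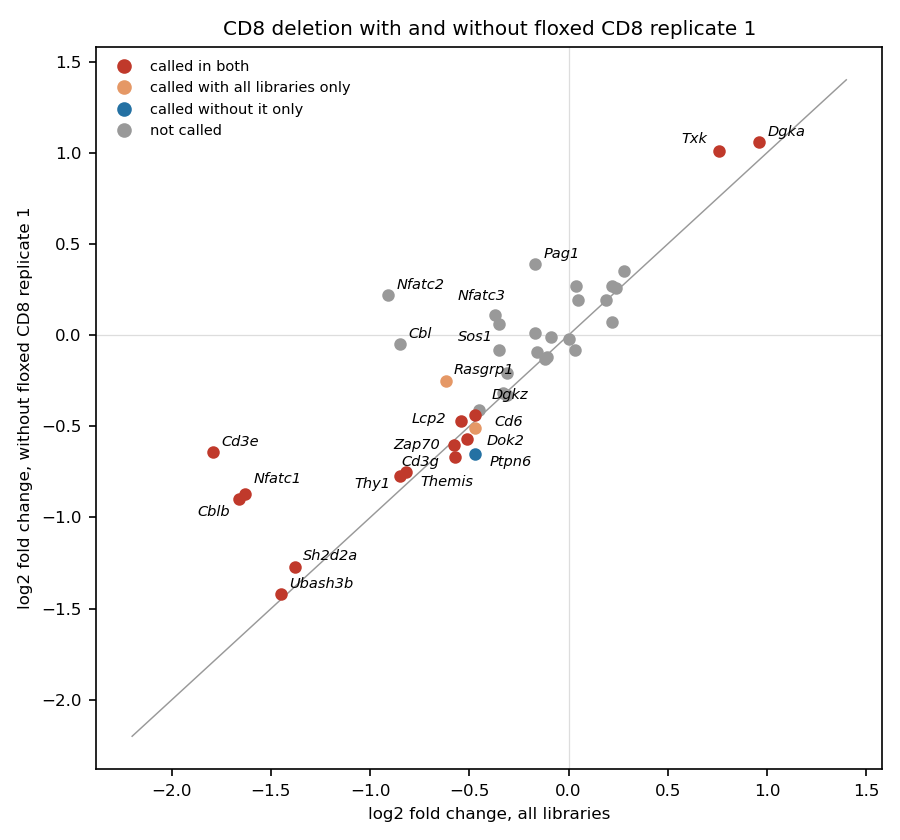
Log2 fold change of deficient over floxed CD8 cells for the 41 members with all libraries (x axis) and without floxed CD8 replicate 1 (y axis), with a line where both are equal and colours for called genes. Cd3e, Cblb and Nfatc1 shrink toward 0 yet are called in both, Nfatc2 changes sign uncalled, and Ubash3b, Sh2d2a and Dgka lie near the line.

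Melanoma markers moved with these differences. In the CD8 deletion 13 of 15 melanoma genes and 8 of 20 macrophage and monocyte genes were called higher (1 macrophage gene lower), and none of the melanoma genes was at 0 counts in a deficient CD8 library. With the summed levels of both lists as covariates in the fit, 3 of the 16 calls were left: Ubash3b (log2 -1.36), Sh2d2a (-0.93) and Dgka (1.01). In that fit 0.568% of all tested genes were higher and 0.291% lower, and the members' median was -0.03. The melanoma sum does not overlap between floxed and deficient CD8 libraries, so in this design melanoma content and deletion cannot be told apart for any of the 16 genes. Dgka lies against a melanoma gene: its last 98 exonic bases (gene at chr10:128720141-128744056, minus strand) overlap Pmel, a pigment cell gene on the other strand, and the counting was stranded per the file headers. Pmel was at 319 to 713 CPM in deficient CD8 libraries and at 81.3, 130 and 383 CPM in treated ones, where Dgka was at 222, 214 and 213 CPM. The part of this overlap in the Dgka difference was not tested.

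In CD4 cells fewer members were called after deletion, 3 higher and 3 lower, where 4.61% of all tested genes were higher and 7.06% lower. The members' median was 0.03. The share of members called lower was near that of all tested genes. Dgka and Txk were higher here too, joined by Prkcq, while Ptpn6, Dok2 and Ubash3b were lower. By role, 2 of 24 positive and 1 of 14 negative members were higher, and 3 of 14 negative members were lower. None of the CD3 and zeta chains, of the adaptors or of the NFAT factors was called.

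Dgka was at 226, 222 and 160 CPM in floxed and at 424, 319 and 333 CPM in deficient CD4 libraries, with no overlap (log2 0.82 ± 0.15, adjusted p = 0.00165). Txk was at 32, 42.8 and 33.3 CPM against 77.3, 49.4 and 52.3 CPM (log2 0.73 ± 0.2, adjusted p = 0.0206), a call lost without floxed CD4 replicate 1 or 3 or deficient CD4 replicate 1. Prkcq, protein kinase C theta, went from 137, 148 and 107 CPM to 206, 239 and 214 CPM (log2 0.75 ± 0.15, adjusted p = 0.0026). The groups of Txk and Prkcq did not overlap either. Ptpn6, which is also abundant in myeloid cells, was at 400, 445 and 562 CPM in floxed and at 225, 272 and 245 CPM in deficient CD4 libraries (log2 -0.92 ± 0.17, adjusted p = 0.00119). Dok2, an adaptor that myeloid cells also express, was at 310, 261 and 448 CPM against 160, 191 and 141 CPM (log2 -1.05 ± 0.17, adjusted p = 0.000524). For both, the highest floxed library was replicate 3, which also had the highest macrophage sum (29900 CPM). Ubash3b differed by less than in CD8 cells (log2 -0.38 ± 0.12, adjusted p = 0.0387), and its call was lost in 4 of 6 fits without 1 library.

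Macrophage markers ran the other way from CD8 cells, with 15 of 20 called lower and none higher in the CD4 deletion, and 10 of 15 melanoma genes were called higher. With both sums as covariates none of the 6 calls was left, in a fit that called 0.0213% of tested genes higher and 0.0426% lower, and the log2 difference of Dgka was -0.02. The part of these other cells in the CD4 differences was not tested further.

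Whether the deletion effect differed between the cell types was tested directly, as the CD8 log2 difference minus the CD4 one. For 8 members it was called below 0 and for none above, where 4.72% of all tested genes were below and 6.89% above. They were Cd3g (-0.67 ± 0.21), Zap70 (-0.74 ± 0.23), Themis (-0.85 ± 0.24), Ubash3a (-0.82 ± 0.25), Ubash3b (-1.06 ± 0.17), Cblb (-1.58 ± 0.48), Thy1 (-0.95 ± 0.21) and Sh2d2a (-1.19 ± 0.2). In CD4 cells the same genes had 95% intervals on the log2 deletion difference of -0.2 to 0.41 (Cd3g), -0.33 to 0.38 (Themis), -0.21 to 0.41 (Thy1) and -0.48 to 0.11 (Sh2d2a). Without floxed CD8 replicate 1 the count was 7 below and 0 above, against 4.44% and 6.63% of tested genes. Themis (adjusted p = 0.0533) and Ubash3a (adjusted p = 0.0696) were then lost, Cd3e was added, and the difference of Cblb became -0.8 ± 0.2. Only Ubash3b, Thy1 and Sh2d2a kept the call in each of the 12 fits without 1 library, with adjusted p-values no higher than 0.0016, 0.0175 and 0.00236. Txk and Dgka, higher in both cell types, had differences between them of 0.03 (95% interval -0.54 to 0.61) and 0.14 (-0.31 to 0.59). In the same test 15 of the 20 macrophage genes were called above 0. With the marker covariates none of the 8 members was left, in a fit that called 0.781% of tested genes above 0 and 0.284% below.

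Blockade in deficient CD8 cells went with higher levels of much of the list. Of 41 members, 11 were called higher and 1, Dgka, lower, where 8.25% of all tested genes were higher and 5.53% lower. The members' median was 0.31, and that of all tested genes -0.03. Treated CD8 replicate 2 held 25.2% ribosomal-type RNA, and without the libraries rich in it 7 members were higher and 1 lower, with Cd3d, Zap70, Dgkz and Cd6 lost. That fit called 1002 of 14658 tested genes, against 1941 of 14080 with all libraries. Higher were 5 positive members (Cd3d, Cd3g, Zap70, Lcp2 and Themis), 3 negative ones (Ubash3b, Dgkz and Dok2) and all 3 mixed ones. The deficient libraries were the reference here and the test group in the deletion comparison, so the 2 comparisons share samples, and opposite signs between them are no independent result.

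Themis had the largest difference, at 210, 207 and 211 CPM in untreated and at 510, 563 and 469 CPM in treated deficient CD8 libraries. It was 2.45-fold higher (log2 1.29 ± 0.17, adjusted p = 4.65e-05), with treated libraries also above the 278 to 417 CPM of floxed ones. Thy1 was at 1040, 1010 and 915 CPM in treated libraries, 2.1-fold over untreated ones (adjusted p = 8.37e-05). Cd3g reached 997, 1050 and 1080 CPM (log2 0.91 ± 0.15, adjusted p = 0.00033), above all 3 floxed libraries. For these 3 genes no treated library overlapped an untreated deficient one.

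Sh2d2a and Ubash3b were higher with blockade but stayed below floxed levels in nearly every library. Sh2d2a was at 471, 419 and 432 CPM in treated libraries (log2 1 ± 0.14, adjusted p = 9.36e-05), against 467 to 676 CPM in floxed ones. Ubash3b was at 191, 187 and 201 CPM (log2 0.88 ± 0.12, adjusted p = 6e-05), against 249 to 309 CPM in floxed ones. Dgka fell from 409, 360 and 318 CPM to 222, 214 and 213 CPM (log2 -0.74 ± 0.15, adjusted p = 0.00275), next to 162 to 214 CPM in floxed libraries. Dok2 was higher, at 191, 172 and 152 CPM against 89.5, 113 and 105 CPM (log2 0.74 ± 0.17, adjusted p = 0.00584).

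Differences were smaller for the remaining calls. Cd3d was at 446, 498 and 437 CPM in treated against 347, 316 and 307 CPM in untreated libraries (log2 0.51 ± 0.14, adjusted p = 0.0185). Zap70 was at 295, 276 and 282 CPM (log2 0.59 ± 0.16, adjusted p = 0.0172), Lcp2 at 304, 283 and 303 CPM (log2 0.42 ± 0.12, adjusted p = 0.0205), Dgkz at 383, 395 and 334 CPM (log2 0.39 ± 0.12, adjusted p = 0.0369) and Cd6 at 317, 308 and 246 CPM (log2 0.55 ± 0.16, adjusted p = 0.0293). Each of these 5 calls was lost without deficient CD8 replicate 3 or without treated CD8 replicate 1, which left 7 called members. Those fits called 1192 of 14609 and 919 of 14689 tested genes, in place of 1941 of 14080. The same 5 were lost with the marker covariates, in a fit that called 2.34% of tested genes higher and 1.71% lower, while Cd3g, Themis, Ubash3b, Dgka, Thy1, Sh2d2a and Dok2 kept theirs. In the treated CD8 libraries 15 of 20 macrophage genes were called lower and 1 higher than in untreated ones, and the 15 melanoma genes had log2 differences of -2.23 to -0.97 (median -1.58), none of them called. The part of these cells in the members' differences was not tested. Lck (log2 0.4 ± 0.14, adjusted p = 0.0608), Cblb (0.64 ± 0.34) and Txk (-0.43 ± 0.19) were not called, and neither was any of the NFAT factors, whose differences ran from -0.6 to 0.1.

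**Figure D4:**
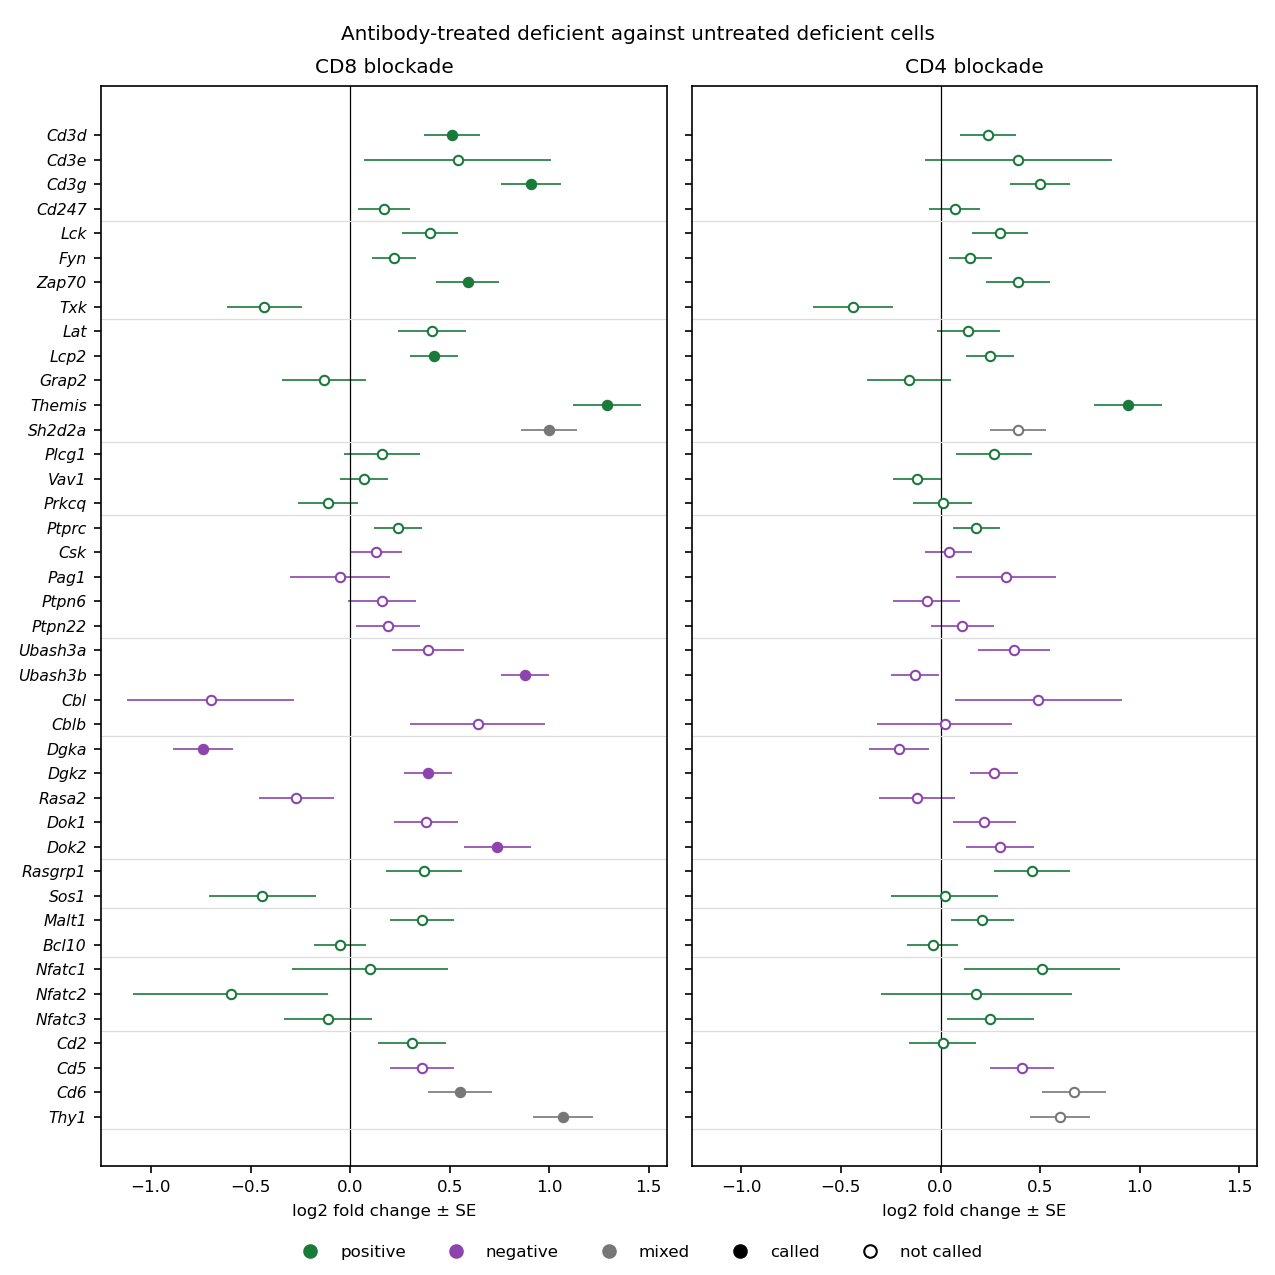
Log2 fold change (x axis) of antibody-treated over untreated deficient cells for the 41 members in order of role (y axis, gray lines between roles), in CD8 cells on the left and CD4 cells on the right, with bars for the SE, colours for positive, negative and mixed members, and filled points for called genes. In CD8 cells 11 filled points lie right of 0 and Dgka lies left, and in CD4 cells Themis is the one filled point.

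Blockade in deficient CD4 cells left 1 member called, Themis, and none lower, where 0.0852% of all tested genes were called higher and 0.0568% lower. Themis was at 136, 168 and 152 CPM in untreated and at 297, 346 and 236 CPM in treated CD4 libraries (log2 0.94 ± 0.17, adjusted p = 0.0315), without overlap. The call was lost in 5 of the 6 fits without 1 library, with adjusted p up to 0.239 and log2 differences of 0.83 to 1.11, and it was kept without treated CD4 replicate 3. Cd6 (0.67 ± 0.16) and Thy1 (0.6 ± 0.15) came next, at adjusted p-values of 0.116 and 0.119. Cd6 was at 301, 327 and 253 CPM in untreated and 491, 487 and 424 CPM in treated libraries, which did not overlap either. The members' median was 0.22.

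The difference in blockade effect between the cell types was called for 1 member, Ubash3b, at 1 ± 0.17 (adjusted p = 0.00461), and for none below 0, where 0.575% of tested genes were called above 0 and 0.227% below. In CD4 cells Ubash3b was at 137, 127 and 155 CPM in untreated and 115, 133 and 135 CPM in treated libraries, which overlapped. The call held in all 12 fits without 1 library, with values of 0.89 to 1.08. For Themis the difference was 0.35 with a 95% interval of -0.15 to 0.85, and for Thy1 0.47 with one of 0.04 to 0.91, neither called after adjustment.

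Compared with CD4 cells of the same condition, CD8 cells differed in different members by condition. In floxed mice 18 members were higher and 6 lower in CD8 cells (18.9% and 20.2% of all tested genes), in deficient mice 4 were higher and 10 lower (6.21% and 9.39%), and in treated mice 10 were higher and 6 lower (9.36% and 11%). Without floxed CD8 replicate 1 the floxed counts were 15 higher and 8 lower (16.1% and 18.2%). Cd3e, Nfatc1 and Cblb then had log2 differences of 0.94, 0.94 and 1.11 in place of 2.1, 1.71 and 1.87. The calls of Grap2, Sos1 and Nfatc3 were lost, and Malt1 and Lcp2 became lower. In deficient mice every fit without 1 library called 7 to 9 members in place of 14. Over all tested genes those fits called 1331 to 1745, in place of 2196 of 14080.

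Txk was higher in CD8 than in CD4 cells in all 3 conditions, at 64.7 to 107 against 32 to 42.8 CPM in floxed, 124 to 154 against 49.4 to 77.3 CPM in deficient and 90.6 to 116 against 41 to 46.4 CPM in treated libraries. Its log2 differences were 1.14 ± 0.2 (0.89 ± 0.18 without floxed CD8 replicate 1), 1.18 ± 0.19 and 1.19 ± 0.2. Prkcq (1.08 ± 0.15, 0.61 ± 0.15 and 0.5 ± 0.15), Thy1 (1.39 ± 0.15, 0.44 ± 0.15 and 0.92 ± 0.15) and Grap2, an adaptor that joins Slp-76 to Lat (0.71 ± 0.21, 0.67 ± 0.21 and 0.71 ± 0.21), were called higher in CD8 cells each time as well. Several of these calls depended on single libraries. In deficient mice that of Thy1 was lost in all 6 fits without 1 library and that of Grap2 in 5 of 6, and in treated mice that of Grap2 was lost in 3 of 6 and that of Prkcq in 4 of 6. Without floxed CD8 replicate 1 the floxed differences were 1 for Prkcq, 1.3 for Thy1 and 0.47 for Grap2, the last not called. Cd5, a receptor that dampens the signal, was lower in CD8 cells by log2 -1.25 ± 0.16, -1.7 ± 0.17 and -1.74 ± 0.17, with 103 to 169 CPM in all 9 CD8 libraries and 242 to 505 CPM in all 9 CD4 libraries. Cd2 (-0.78 ± 0.17, -1.2 ± 0.17 and -0.9 ± 0.17) and Dok1 (-1.25 ± 0.16, -0.72 ± 0.16 and -0.57 ± 0.16) were also lower in CD8 cells in each condition, though the Dok1 call in treated mice was lost without treated CD8 replicate 3 or treated CD4 replicate 3.

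Ubash3b was higher in CD8 than in CD4 cells in floxed (log2 0.66 ± 0.12) and treated mice (0.6 ± 0.12) and lower in deficient mice (-0.4 ± 0.12). The call in deficient mice was lost in 4 of 6 fits without 1 library (deficient CD8 replicate 1 or 3, deficient CD4 replicate 1 or 3), with no low count filter (adjusted p = 0.173) and without the libraries rich in ribosomal-type RNA (adjusted p = 0.202). Themis was higher in CD8 cells in floxed (1.31 ± 0.17) and treated mice (0.81 ± 0.17), and Sh2d2a likewise (1.56 ± 0.14 and 0.97 ± 0.14), and neither was called in deficient mice. The summed macrophage level was higher in every CD4 library than in any CD8 library, and in floxed mice 18 of its 20 genes were called lower in CD8 cells and 1 higher. With both marker sums as covariates, no member was called higher and 6 were lower in floxed mice (1.91% and 2.65% of tested genes), 0 higher and 12 lower in deficient mice (4.19% and 6.36%), and 1 higher and 10 lower in treated mice (3.5% and 5.26%). Txk, Grap2, Prkcq and Thy1 lost their calls in all 3 conditions in that fit. In floxed mice 11 of the 18 genes called higher took a value below 0, so a direction between the cell types depends for these genes on that adjustment.

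**Figure D5:**
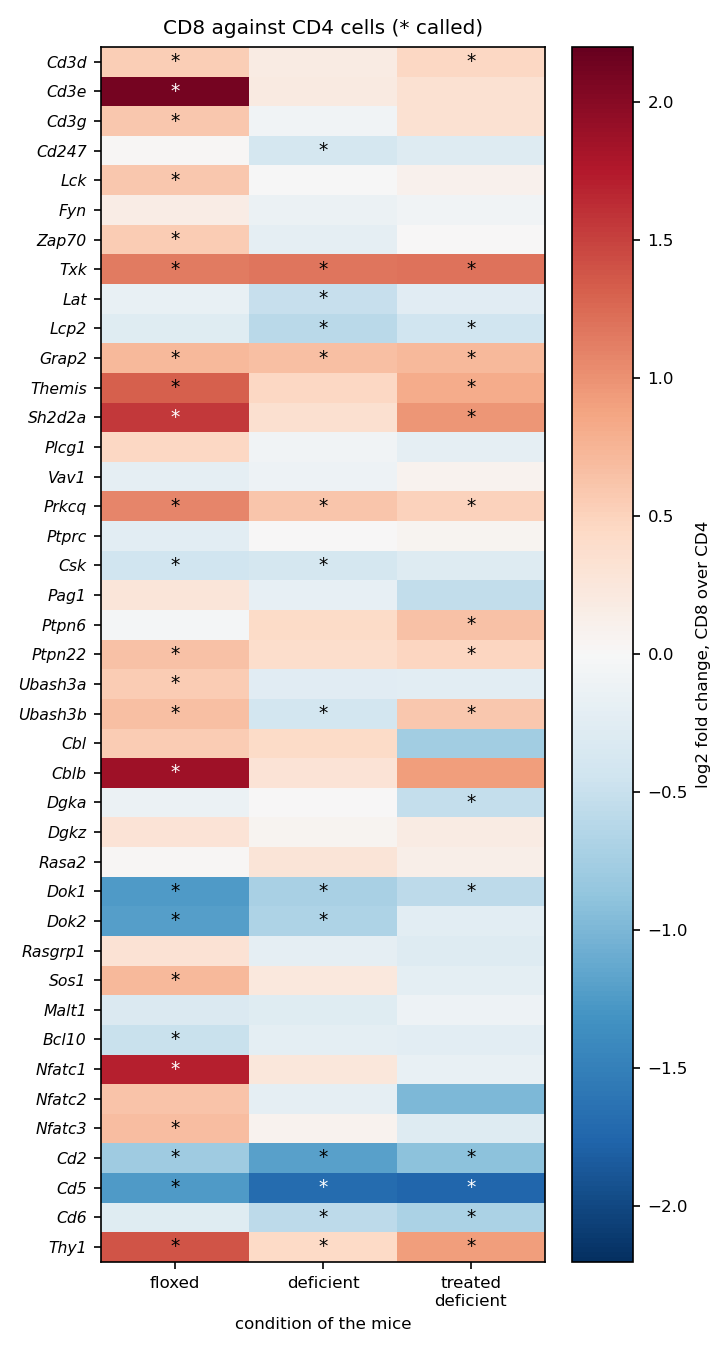
Log2 fold change of CD8 over CD4 cells (colour scale, red for higher in CD8 cells and blue for lower) for the 41 members (rows, by role) in floxed, deficient and treated mice (columns), with a star for called genes. Txk, Grap2, Prkcq and Thy1 are red with a star in all 3 columns, Cd2, Cd5 and Dok1 are blue with a star in all 3, and Ubash3b is red, blue and red in that order.

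A wider list of 91 other genes of the pathway gave the surroundings. In the CD8 deletion 17 of the 91 were lower and 5 higher, with a median of -0.13, where 9.61% and 9.65% of all tested genes were lower and higher. Without floxed CD8 replicate 1 the counts were 11 lower and 9 higher (7.55% and 7.78%). The lowest adjusted p-values were those of Dusp2 (log2 -0.91 ± 0.14), a phosphatase of MAP kinases that is induced by the receptor, Ptpn7 (-0.7 ± 0.12), Ndfip1 (-0.72 ± 0.13), which activates Nedd4 family ligases, and Dusp5 (-0.88 ± 0.16) on the lower side, and of the adaptor Trat1 (1.82 ± 0.32), Tespa1 (1.14 ± 0.26), Gab3 (1.43 ± 0.39) and Crk (0.51 ± 0.14) on the higher side. With blockade in CD8 cells 17 of the 91 were higher and 4 lower (8.25% and 5.53% of all tested genes), led by Dusp5 (1.07 ± 0.16), Dusp2 (0.85 ± 0.14), Ptpn7 (0.75 ± 0.12) and Ndfip1 (0.76 ± 0.13), with Sh2b3 (-1.33 ± 0.29), Ikbkb (-0.52 ± 0.14), Trat1 (-1.1 ± 0.32) and Itpr2 (-0.69 ± 0.22) lower. In the CD4 deletion 3 were higher (Nedd4 1.97 ± 0.35, Skap1 0.45 ± 0.14 and Trbc2 0.47 ± 0.15) and 11 lower (4.61% and 7.06% of all tested genes), among them the phosphatase Ptprj (-1.37 ± 0.2), Sh3bp2 (-1.16 ± 0.2) and Tec (-0.7 ± 0.17). None of the 91 was called with blockade in CD4 cells. Nedd4 was at 582, 161 and 1257 counts in treated CD4 replicates 1 to 3. The melanoma sums of those libraries were 650, 459 and 2080 CPM. Melanoma and macrophage markers differed between the groups compared here as well. The part of those cells in the differences of the 91 genes was not tested.

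Some members are neighbours. Cd3d, Cd3e, Cd3g, Thy1, Cbl and Ubash3b lie on 1 stretch of chromosome 9, from the 3' end of Ubash3b at 41011098 to the 5' end of Cd3e at 45009627 (GRCm38). Of the 69 other tested genes in that stretch and the 1000000 bases on either side, 6 were higher and 7 lower in the CD8 deletion, and 4 were higher and 3 lower in the CD4 deletion. Over all tested genes 9.65% were higher and 9.61% lower in the CD8 deletion, and 4.61% and 7.06% in the CD4 deletion. Of the 41 members, 3 share exonic bases with another gene model on the same strand and 9 with one on the opposite strand. The widest is the zeta chain gene Cd247, with 3007 exonic bases opposite Pou2f1.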

How the data were processed

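RNA of sorted CD8+ and CD4+ T cells was sequenced in 18 libraries, 6 groups of 3. The deposited values are raw counts per gene, made by the authors with featureCounts 1.5.1 (strand option 2, Ensembl 87), per the file headers. The submitters' processing notes also name GRCm38, STAR and DESeq2. Symbols came from a GENCODE M21 table for 49326 of 49671 gene models. Counts were filtered with filterByExpr, then scaled by TMM and fitted over all 18 libraries with edgeR 4.0.16 (R 4.3.3, robust quasi-likelihood test, 9 contrasts, 12 residual degrees of freedom). P-values were adjusted by Benjamini-Hochberg over 14080 tested genes and are two-sided. DESeq2 1.42.0 and limma 3.58.1 voom were alternatives. The common biological coefficient of variation was 0.229. The edgeR fit was tested on simulated data for the CD8 deletion alone, with that value for every gene and no library standing apart. The alternative fits, the marker covariates and the differences between cell types were not part of that test.

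All 41 members were named, with up to 4 called genes per direction, by smallest adjusted p, from the wider list of 91 other pathway genes. One gene that this rule names is not reported here. Members and lists were chosen with earlier results of these data known. Marker lists covered melanoma, macrophages and other cells. Libraries are pools of separate mice, and p-values measure the spread between pools. The labels do not say what replicate numbers mark. Same-numbered CD8 and CD4 libraries of treated mice deviated together (r of 0.105, 0.103 and 0.289 across genes), and in no other comparison were all 3 correlations over 0.1. Deficient mice came near, at 0.164, 0.093 and 0.134, with r between different numbers no higher than -0.027. In floxed mice r was 0.003, 0.028 and 0.088. The main tests treated libraries as unpaired, and blocked fits are given below. Ribosomal-type RNA took over 5% of counts in treated CD8 replicate 2 (25.2%) and deficient CD4 replicate 3 (7.23%).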

Additional observations from a re-analysis of the deposited data

Results flagged for a closer look

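The effect of deletion differed between CD8 and CD4 cells, by a test of the difference itself, for 8 members. The CD8 minus CD4 differences in log2 fold change were -0.67 for Cd3g, -0.74 for Zap70, -0.85 for Themis, -0.82 for Ubash3a, -1.06 for Ubash3b, -1.58 for Cblb, -0.95 for Thy1 and -1.19 for Sh2d2a. Leaving out 1 of the 12 libraries at a time, the calls were lost in 7 fits for Cd3g and Zap70, in 8 for Themis and Ubash3a, in 9 for Cblb and in none for Ubash3b, Thy1 and Sh2d2a. The effect of blockade differed in the same kind of test for Ubash3b alone, at 1.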

How the results depend on the processing

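Over all alternatives, 98 member calls gave 1587 values, of which 1296 kept direction and call, 272 kept direction and lost the call, and 19 changed sign, all 19 with the melanoma and macrophage sums as covariates. Leaving out 1 library at a time gave 10 to 19 called members in the CD8 deletion, 4 to 6 in the CD4 deletion, 7 to 12 in the CD8 blockade, 0 to 3 in the CD4 blockade, 22 to 26, 7 to 9 and 11 to 14 in CD8 against CD4 cells (floxed, deficient, treated), 3 to 10 in the deletion difference and 1 in the blockade difference. Over all genes tested, those fits called 1641 to 2716 in the CD8 deletion and 783 to 1584 in the CD4 deletion. They called 919 to 1651 in the CD8 blockade and 0 to 106 in the CD4 blockade. CD8 against CD4 cells gave 4741 to 5336, 1331 to 1745 and 1862 to 2301, and the differences 1212 to 1883 and 49 to 108. With all libraries the totals were 2712, 1643, 1941, 20, 5506, 2196, 2870, 1634 and 113 of 14080, in that order. With the marker covariates the counts were 3, 0, 7 and 0 in the deletion and blockade comparisons in that order, 6 in floxed CD8 against CD4 cells, 0 in the deletion difference and 2 in the blockade difference. The same fit called 121, 9, 570, 6, 642, 150 and 209 of 14080 tested genes, in that order. The values that changed sign there were Dgka (-0.02) in the CD4 deletion, Cd3e (-1.42), Lck (-0.54), Zap70 (-0.71), Txk (-0.33), Grap2 (-1), Themis (-0.07), Ptpn22 (-0.72), Ubash3a (-0.72), Cblb (-0.7), Prkcq (-0.12) and Nfatc3 (-0.76) in floxed CD8 against CD4 cells, Grap2 (-0.24), Ptpn22 (-0.28) and Prkcq (-0.17) in treated ones, and Zap70 (0.07), Themis (0.02), Ubash3a (0) and Cblb (0.15) in the deletion difference. Fits on only the groups compared called 11, 6, 26 and 2 members in the deletion and blockade comparisons. They called 15, 19 and 22 in CD8 against CD4 cells (floxed, deficient, treated), 4 in the deletion difference and 2 in the blockade difference. Of all tested genes they called 1875 of 12739, 1407 of 12617, 3985 of 12553 and 51 of 12649 in the deletion and blockade comparisons. In CD8 against CD4 cells they called 3454 of 12457, 3210 of 12849 and 3559 of 12810. In the differences they called 1230 of 13738 and 589 of 13448. For the CD4 blockade no low count filter gave 4 and DESeq2 3, and no filter gave 2 for the blockade difference. The totals over all genes were 541 of 27361, 172 of 15151 and 665 of 27361. Without the libraries rich in ribosomal-type RNA the counts were 0 in the CD4 blockade, 9 and 10 in deficient and treated CD8 against CD4 cells, and 3 in the deletion difference. The totals there were 1, 1322, 1977 and 1205 of 14658 tested genes. A replicate block gave 19, 6, 14 and 3 in the deletion and blockade comparisons, 25, 16 and 16 in CD8 against CD4 cells, and 9 and 1 in the differences. It called 2749, 1758, 2165, 65, 5443, 2307, 2960, 1743 and 179 of 14080 tested genes, in that order. A block by pool, chosen after seeing the data, gave 26, 17 and 18 in CD8 against CD4 cells and 10 and 1 in the differences. Its totals were 5486, 2409, 3037, 1879 and 286 of 14080 tested genes. The cause of these shifts was not tested.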
